A study of Homo sapiens with 6 samples.

Results

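The genes described here were 6 keratins, KRT7, KRT8, KRT18, KRT19, KRT80 and KRT81, taken by symbol from an expression table of 20442 genes that held 55 keratin genes. All 6 were found in the table, and all 6 reached the mean level of 1 FPKM needed for testing, as did 12461 genes in all. FPKM is the number of sequenced fragments of a gene after correction for its length and for library size. The name simple epithelial keratins fits KRT7, KRT8, KRT18 and KRT19. KRT81 is classed as a hair keratin, and KRT80 is a divergent type II keratin.

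Keratins build the intermediate filaments of epithelial cells. Each filament subunit is a pair of one type I (acidic) and one type II (basic) protein, so that KRT18 and KRT19 (type I) need partners such as KRT8 and KRT7 (type II). KRT8 with KRT18 is the basic pair of single-layered epithelia. In the kidney this pair is found in tubule epithelium, and KRT7 and KRT19 mark mainly distal tubules and collecting ducts in health and are also found in injured or cultured tubule cells. A keratin without a partner is degraded, and RNA levels do not report on the protein or the filament.

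RNA was sequenced from HK-2 cells, an immortalized line derived from the proximal tubule of human kidney, in 6 libraries. The titles label 3 as control, which received lentivirus with a control plasmid, and 3 as overexpression, which received lentivirus carrying HNRNPF, the gene of the RNA-binding protein hnRNP F. Cultures were kept for 72 h with 30 mM of glucose or, as osmotic control, 30 mM of mannitol. The study describes sequenced cells from both media. Which of them the 6 libraries used here came from cannot be told from their titles. The study's main question was how expression differs when hnRNP F is raised in cells under high glucose. Whether these 6 libraries had high glucose is unknown. The study calls the libraries of a group biological replicates and describes parallel wells of cells. No label says which cultures the 3 libraries of a group came from, so p-values measure only the spread between these libraries, part of which may be technical.

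The level of HNRNPF did not match the labels. It was at 555.18, 563.36 and 588.68 FPKM in the control libraries and 322.83, 349.84 and 320.8 in those labelled overexpression. Every library labelled overexpression was below every control library, with a log2 fold change of -0.78 (SE 0.061, limma adjusted p = 1.07e-04). Transcripts from the lentivirus and from the cell's own gene cannot be told apart in a value per gene. By quantitative PCR, the study reports higher HNRNPF mRNA in HK-2 cells given the overexpression lentivirus. The study gives the same gene ID for the insert used in HK-2 cells and in mouse cells. Whether reads of the insert were counted in the human HNRNPF row was not tested. Each direction given here is that of the libraries as labelled.

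The libraries were much alike. Each had 12396 to 12462 genes at an FPKM of at least 1, and the correlation across genes on a log2 scale was 0.989 to 0.994 within groups and 0.978 to 0.985 between groups. Of the markers of simple epithelium, KRT8, KRT18 and EPCAM (an epithelial adhesion molecule) were present and CDH1, the gene of E-cadherin, was at 0.07 FPKM or less in every library. Of 9 markers of proximal tubule, 2 reached the level for testing, GGT1 (gamma-glutamyltransferase) and SLC5A2 (the glucose transporter SGLT2). LRP2, the gene of the proximal tubule receptor megalin, was listed at 0 in every library.

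The 6 keratins spanned a wide range of levels, and their order was the same in both groups. In the control libraries the mean FPKM was 508 ± 23.1 for KRT8, 308 ± 4.01 for KRT18, 156 ± 9.72 for KRT19, 74.6 ± 4.05 for KRT80, 19.4 ± 0.127 for KRT7 and 1.84 ± 0.147 for KRT81 (SD, n = 3). In the libraries labelled overexpression the means were 491 ± 15.0, 267 ± 4.40, 176 ± 2.16, 65.7 ± 4.70, 15.1 ± 1.10 and 1.76 ± 0.759 in the same order. No neighbours in this order overlapped in range within either group. FPKM is per transcript length. It was made from uniquely mapped reads, and the members differ in how much of their sequence is unique (shares given with KRT81), so the steps between them are approximate.

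The nearest neighbours in level were KRT8 and KRT18 in the control libraries, where the mean of KRT8 was 1.65 times that of KRT18, and KRT18 and KRT19 in the libraries labelled overexpression, where the mean of KRT18 was 1.52 times that of KRT19. The widest step in both groups was from KRT7 to KRT81, 10.5-fold in the control libraries and 8.59-fold in the others. The 6 genes carried 94.9% to 95.8% of the summed FPKM of all keratins in a library, and KRT8 alone 44.9% to 47.3%. All keratins together carried 0.117% to 0.133% of the summed FPKM of a library.

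**Figure D1:**
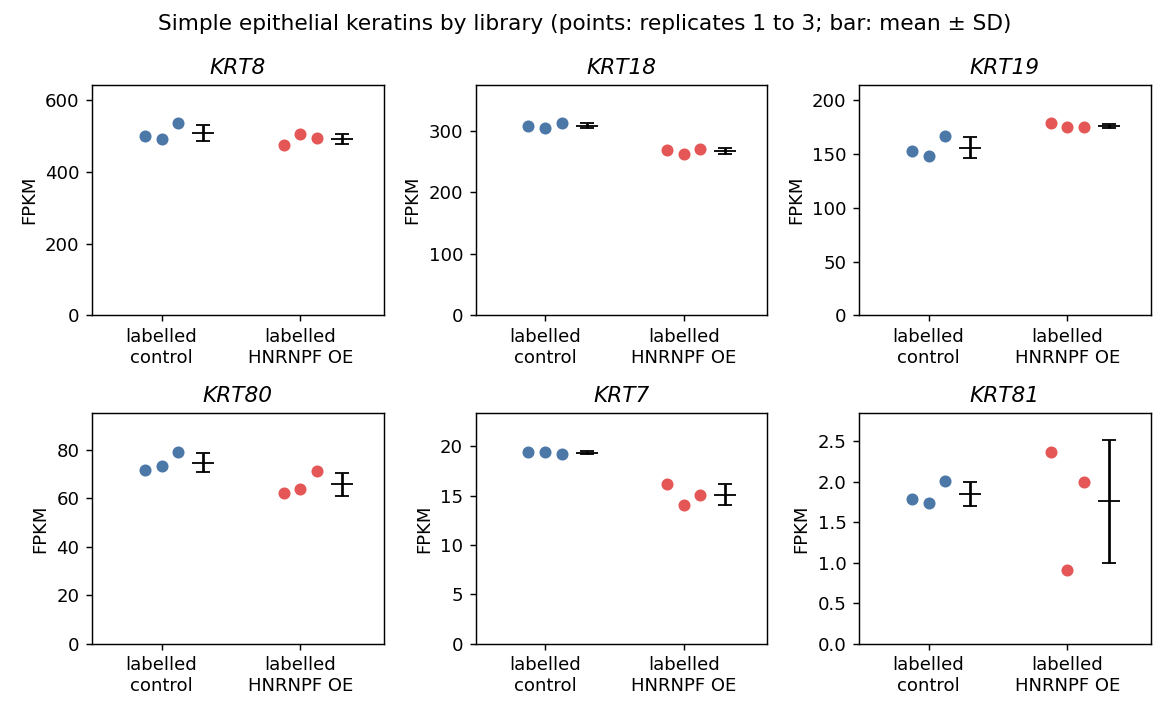
FPKM of each keratin (y axis, from 0) in the 3 control libraries (blue) and the 3 libraries labelled HNRNPF overexpression (red), with the mean ± SD beside each group in black. KRT18, KRT80 and KRT7 sit lower without overlap in the libraries labelled overexpression, KRT19 sits higher without overlap, and KRT8 and KRT81 overlap.

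Of the 6 keratins, KRT7 and KRT18 were lower in the libraries labelled overexpression at a Benjamini-Hochberg adjusted p under 0.05 (limma on log2(FPKM + 0.1)), and 0 were higher. Over all genes tested, 13.1% were lower and 11.3% higher by the same rule, 24.4% in either direction. At an unadjusted p under 0.05 the keratins were 4, with KRT19 the one that was higher and KRT80 the further one that was lower. The share of all genes tested at that unadjusted p was not counted and is at least the 24.4% past the adjusted p. The groups did not overlap for the same 4 genes, 3 lower and 1 higher, where 42.1% of all genes tested did not overlap, 22.5% lower and 19.6% higher. None of the 6 reached a 2-fold change, which 1.11% of all genes did together with the adjusted p. The median log2 fold change of the 6 was -0.17, beside -0.013 for all genes tested.

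KRT7, the type II keratin of ducts and distal tubules, had the largest change among the 4 keratins whose groups did not overlap. Its FPKM was 19.48, 19.43 and 19.24 in the control libraries and 16.24, 14.05 and 15.07 in the libraries labelled overexpression. The control libraries were nearly equal, the others were all lower and more widely spread, and the groups did not overlap. KRT7 fell by 0.36 on the log2 scale (SE 0.079, 95% interval -0.53 to -0.18, limma adjusted p = 0.0117), or 1.28-fold. The call was lost without control replicate 2 (log2 fold change -0.36, adjusted p = 0.0523). In a bulk culture, fewer cells with a transcript and less of it per cell cannot be told apart.

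KRT18, the type I partner of KRT8, fell by less. Its FPKM was 307.33, 303.86 and 311.86 in the control libraries and 269.11, 262.14 and 270.28 in those labelled overexpression. Both groups were tight, with all 3 libraries labelled overexpression under all 3 control libraries. The log2 fold change was -0.20 (SE 0.053, 95% interval -0.32 to -0.084, limma adjusted p = 0.0233), or 1.15-fold. The call was lost when FPKM was rescaled to TPM (adjusted p = 0.0572), without the variance trend (0.0567), and without control replicate 1 (0.0608), control replicate 2 (0.0918), or replicate 1 (0.0585), 2 (0.0550) or 3 (0.0780) of the libraries labelled overexpression.

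KRT8, the type II partner of KRT18 and the most abundant of the keratins, gave no such call. Its FPKM was 498.29, 491.89 and 534.79 in the control libraries and 475.54, 505.49 and 492.86 in those labelled overexpression. The groups overlapped, with 2 of the libraries labelled overexpression above the lowest control library. The log2 fold change was -0.05 (95% interval -0.18 to 0.087, limma adjusted p = 0.583) and turned to 0.046 with quantile scaling.

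KRT80, which is found in many epithelia at cell borders, was lower without a call. Its FPKM was 71.5, 73.16 and 79.19 in the control libraries and 62.26, 63.8 and 71.06 in those labelled overexpression. The groups were separate by a narrow gap, between replicate 3 of the libraries labelled overexpression and control replicate 1. The log2 fold change was -0.18 (95% interval -0.35 to -0.023, limma adjusted p = 0.0888). It passed only when a trend on GC content, length and expression was taken off (-0.30, adjusted p = 0.0221).

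KRT19, the smallest keratin and a type I keratin of ducts, was the only one of the 6 whose groups were separate in the upward direction. Its FPKM was 153.29, 148.05 and 166.89 in the control libraries and 178.7, 174.95 and 174.97 in those labelled overexpression. The libraries labelled overexpression were nearly equal and all above the control libraries, of which replicate 3 lay nearest to them. The log2 fold change was 0.18 (95% interval 0.038 to 0.32) with a limma adjusted p of 0.0636, which did not pass. It passed with quantile scaling (0.21, adjusted p = 0.0442) and without control replicate 3 (0.23, adjusted p = 0.0126).

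Genes around KRT19 were more often called higher than lower. Of the 148 tested genes within 5 Mb of KRT19 on chromosome 17, 48 were called higher and 1 lower, and their median log2 fold change was 0.20. The share called was 33.1%, beside 24.4% of all genes tested (11.3% higher and 13.1% lower). Within 1 Mb the median of 23 tested genes was 0.16. With the median of the 5 Mb window taken off, KRT19 had a log2 fold change of -0.02 (limma adjusted p = 0.825). KRT15, a type I keratin of basal epithelial cells whose gene is next to KRT19, was at 13.22, 12.37 and 12.75 in the control libraries and 16.02, 14.71 and 14.56 FPKM in those labelled overexpression. Its groups were separate too, with a log2 fold change of 0.24 (limma adjusted p = 0.0542). It passed narrowly with median-of-ratios (0.24, adjusted p = 0.0497) and TPM scaling (0.27, adjusted p = 0.0461).

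The other keratins lie elsewhere, in the type II cluster of chromosome 12, where KRT18 is the one type I gene. From KRT80 at chr12:52168996-52192014 through KRT7 at chr12:52233243-52255853, KRT81 at chr12:52285913-52291534 and KRT8 at chr12:52897191-52949860 to KRT18 at chr12:52948855-52952906 they span 783911 bases (RefSeq, GRCh38.p14), and KRT19 lies at chr17:41523617-41528308. The median log2 fold change of tested genes within 5 Mb of the chromosome 12 members was -0.011 to -0.015. With that taken off, KRT18 still passed (adjusted p = 0.0405). The adjacent genes KRT8 and KRT18 shared this surrounding, and their log2 fold changes were -0.05 and -0.20.

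**Figure D2:**
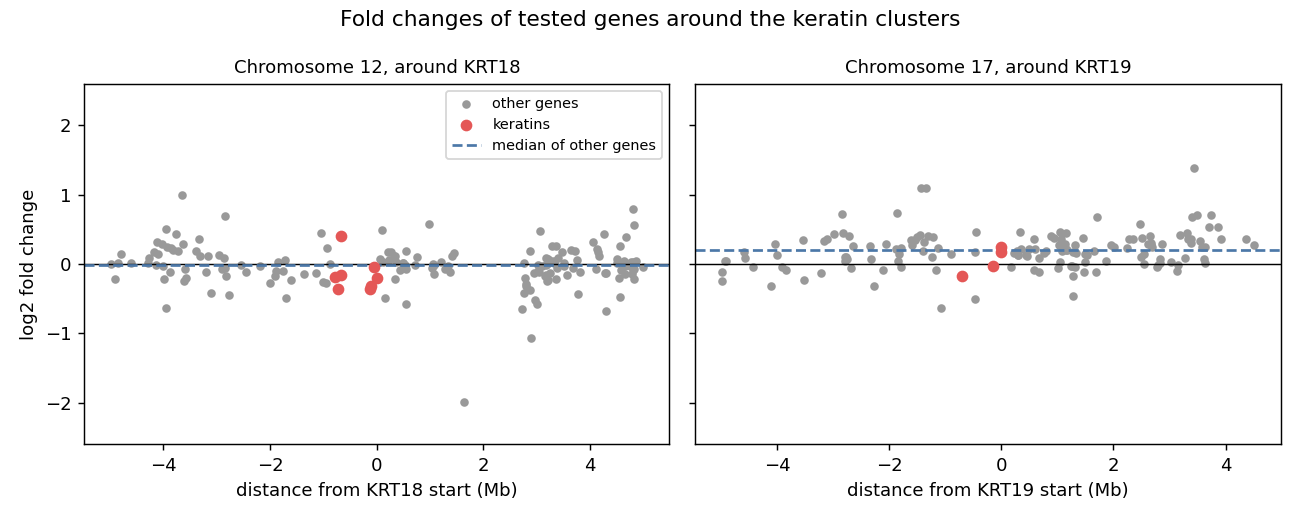
Log2 fold change (y axis, libraries labelled HNRNPF overexpression against control) of tested genes by distance in Mb from the start of KRT18 on chromosome 12 (left) and of KRT19 on chromosome 17 (right). Keratins are red, other genes grey, and the dashed line is the median of the other genes, near 0 on the left and at 0.20 on the right, level with KRT19.

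Ratios within a library do not depend on a scale factor for that library, and they show the uneven movement of the keratins. KRT8 to KRT18 was 1.62, 1.62 and 1.71 in the control libraries and 1.77, 1.93 and 1.82 in the libraries labelled overexpression. KRT19 to KRT18 was 0.499, 0.487 and 0.535 against 0.664, 0.667 and 0.647. KRT7 to KRT8 was 0.0391, 0.0395 and 0.0360 against 0.0342, 0.0278 and 0.0306. In each of these ratios the groups were separate, with less KRT18 relative to KRT8 and to KRT19, and less KRT7 relative to KRT8, in the libraries labelled overexpression. For KRT19 to KRT18 the separation follows from the values above, since KRT19 was higher and KRT18 lower in every library labelled overexpression. KRT19 to KRT18 and KRT7 to KRT8 were not among the planned ratios. How often other pairs of genes separate in this way was not counted. No test was run on the ratios.

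The summed levels of the types kept their ratio within the spread of the libraries. The type II sum (KRT7, KRT8, KRT80 and KRT81) was 604 ± 27.0 FPKM in the control libraries and 574 ± 15.2 in those labelled overexpression, and the type I sum (KRT18 and KRT19) was 464 ± 13.7 and 443 ± 5.60. Both sums were lower without overlap in the libraries labelled overexpression. This rests on the scale of the FPKM values. As a share of a library's summed FPKM, all keratins together overlapped between groups, with means of 0.124% in the control libraries and 0.122% in the others. Type II to type I was 1.28, 1.30 and 1.33 against 1.24, 1.34 and 1.30, which overlapped. These sums are mostly KRT8, KRT18 and KRT19. With each gene weighted equally, as a mean of log2 values, the type II to type I log2 ratio differed by -0.17 (libraries labelled overexpression minus control), beside -0.0091 for the sums. In the summed type I level the lower KRT18 stood beside the higher KRT19.

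**Figure D3:**
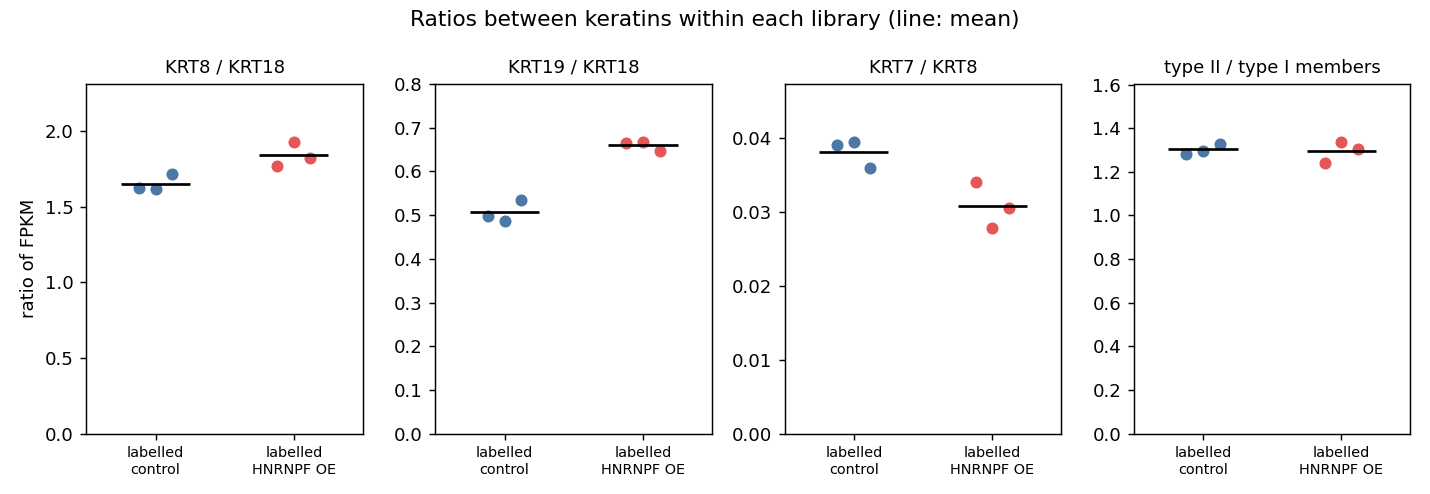
Ratio of FPKM between keratins (y axes, from 0) in each of the 3 control libraries (blue) and the 3 libraries labelled HNRNPF overexpression (red), with a line at each group's mean. KRT8 to KRT18 and KRT19 to KRT18 are higher and KRT7 to KRT8 lower without overlap, and type II to type I overlaps.

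KRT81, a type II keratin of the hair cortex, was near the lower end of what could be tested. Its FPKM was 1.79, 1.73 and 2.01 in the control libraries and 2.37, 0.91 and 2.0 in those labelled overexpression. One library labelled overexpression, replicate 2, lay far under the other 5, and the groups overlapped. The log2 fold change was -0.16 (95% interval -0.84 to 0.52, limma adjusted p = 0.729), an interval that takes in changes in both directions. Without replicate 2 of the libraries labelled overexpression it turned to 0.23 (adjusted p = 0.433).

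The KRT81 row is uncertain for a further reason, its likeness to the neighbouring hair keratin KRT86. KRT81 lies within the span of KRT86 (chr12:52274645-52309163) on the opposite strand, and the aligned coding sequences were 90.1% identical, with 1 identical run of 605 bases.

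The authors kept uniquely mapped reads. Of the 50-base runs in the KRT81 transcript, 44.6% were also found in a transcript of another gene, and 38.4% in one of KRT86. The reads were paired and longer than 50 bases, so such shares can overstate what unique mapping drops. KRT86 was at 1.22, 1.49 and 1.56 FPKM in the control libraries and 2.35, 1.57 and 1.89 in those labelled overexpression, with a log2 fold change of 0.41 (limma adjusted p = 0.175). Its groups were separate by the narrow gap between 1.56 and 1.57. The sum of both genes was 3.01, 3.22 and 3.57 against 4.72, 2.48 and 3.89 FPKM, which overlapped.

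The shared sequence of the other members was of 2 kinds. KRT8 and KRT18 have many processed copies in the genome, and 39.2% of the 50-base runs of KRT8 were found in other genes' transcripts, of 38 genes with 33 numbered KRT8 pseudogenes among them. For KRT18 the share was 52.8%, of 45 genes with 43 numbered KRT18 pseudogenes. The gene that held the most KRT18 runs was KRT8, with 23.9% of them. KRT8 and KRT18 overlap by 1006 bases on opposite strands, and runs were searched on both strands. Runs within that overlap count as shared though they lie at a single place in the genome. How many of the KRT18 runs held by KRT8 lie there was not counted. The 11.2% of the KRT7 runs that lie in its antisense gene KRT7-AS are of this kind too. The libraries were made strand-specific, and whether counting used the strand is not given in the sources used here. KRT19 (1.79%) and KRT80 (0.418%) had little shared sequence.

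Among the other 49 keratins in the table, 6 could be tested, and 0 passed the limma adjusted p of 0.05, which 24.4% of all genes tested passed. At an unadjusted p under 0.05 there were 2, KRT15 and KRT79, and the share of all genes at that unadjusted p was not counted. KRT79, a type II keratin, was at 3.93, 3.73 and 3.5 FPKM in the control libraries and 2.75, 2.98 and 2.86 in those labelled overexpression. Its groups were separate, with a log2 fold change of -0.37 (limma adjusted p = 0.0641), and it passed without the variance trend (adjusted p = 0.0203) and with the trend on GC content, length and expression taken off (-0.47, adjusted p = 0.0362). KRT10, a type I keratin of the upper epidermis and the most abundant of the 6, had a mean of 27.3 ± 3.13 FPKM in the control libraries and 24.2 ± 3.37 in the others, and these groups overlapped, as did those of KRT34 and KRT78.

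Some keratins of stratified and urothelial cells were nearly absent, unlike KRT10 and KRT15. KRT5 and KRT14, the pair of basal cells, KRT17, a keratin of stressed skin, and KRT20, a keratin of gut and umbrella cells, were at 0.19 FPKM or less in every library. A further group of 18 keratins was listed at 0 in every library.

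**Figure D4:**
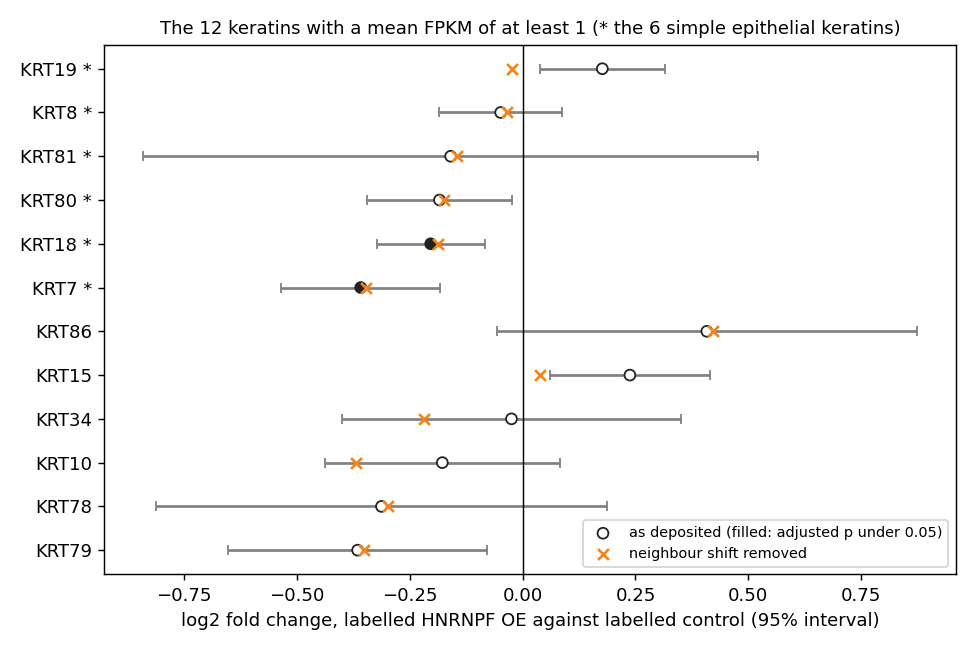
Log2 fold change (x axis, libraries labelled HNRNPF overexpression against control) with its 95% interval for the 12 keratins that could be tested, the 6 described here marked with an asterisk. Filled circles are KRT7 and KRT18, which passed an adjusted p of 0.05, and orange crosses are the values with the median of neighbouring genes within 5 Mb taken off, which move KRT19 from 0.18 to -0.02.

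The vimentin gene, VIM, encodes the intermediate filament of mesenchymal and cultured cells. VIM was above every keratin, at 1050.37, 1080.5 and 1134.33 FPKM in the control libraries and 1076.34, 1117.84 and 1104.18 in those labelled overexpression. The groups overlapped, with a log2 fold change of 0.02 (95% interval -0.12 to 0.15, limma adjusted p = 0.878) that turned to -0.01 without control replicate 1 and to -0.048 with the GC, length and expression trend taken off. Of 16 intermediate filament genes other than keratins 14 could be tested, VIM included, and 4 were higher and 0 lower, with a median log2 fold change of 0.18. Over all genes tested, 11.3% were higher and 13.1% lower. The 4 higher genes were PRPH (peripherin, 0.99), NEFM and NEFL (neurofilament subunits, 0.78 and 0.62) and LMNA (nuclear lamins A and C, 0.24). PRPH, NEFM and NEFL were low, with control means of 0.747, 1.84 and 2.21 FPKM. PRPH reached the level for testing only through the libraries labelled overexpression (mean 1.57 FPKM), so the filter favoured a rise. The call of PRPH was lost without control replicate 2 (adjusted p = 0.0619) and without replicate 3 of the libraries labelled overexpression (0.0626), and that of LMNA without any one library but control replicate 3 (0.0529 to 0.113).

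Linkers that tie keratins to cell junctions had calls in both directions. Of 24 genes of desmosomes, hemidesmosomes and linkers 16 could be tested, and 2 were higher and 3 lower, with a median log2 fold change of 0.054. Over all genes tested, 11.3% were higher and 13.1% lower. DSP encodes desmoplakin, which anchors keratin filaments at desmosomes. DSP was at 22.04, 22.37 and 22.76 FPKM in the control libraries and 14.33, 17.2 and 14.11 in those labelled overexpression. All 3 of the latter lay well under the control libraries, a fall by 0.56 on the log2 scale (SE 0.089, limma adjusted p = 0.00322) that kept its call under every alternative run.

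The desmosomal cadherins differed among themselves. DSG2 (desmoglein 2) fell by 0.30 on the log2 scale (limma adjusted p = 0.0107), a call lost without control replicate 2 (0.0528) and with the neighbour median taken off (-0.12, 0.214), and was named after its value was seen. DSC3 (desmocollin 3) rose by 1.15 from a low control mean of 0.607 FPKM (adjusted p = 0.0110). It reached the level for testing only through the libraries labelled overexpression (mean 1.45 FPKM), so the filter favoured a rise. ITGA6, the integrin alpha chain of hemidesmosomes, fell by 0.43 (adjusted p = 0.0339), lost without either of control replicates 1 and 2 or of replicates 1 and 2 of the libraries labelled overexpression (0.0816 to 0.117). EVPL (envoplakin) rose by 0.49 (adjusted p = 0.0149), and with its neighbours' median taken off the value was 0.21 (adjusted p = 0.238). Its call was also lost without control replicate 2 (0.0571) or replicate 2 of the libraries labelled overexpression (0.0544). PLEC, the gene of the linker plectin, overlapped between groups (0.16, adjusted p = 0.339), and passed without control replicate 3 (0.31, adjusted p = 0.0124).

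Proteins that fold, degrade or bind keratins gave 5 higher and 2 lower genes of 22, with a median log2 fold change of 0.031. Of all genes tested, 11.3% were higher and 13.1% lower. SFN encodes 14-3-3 sigma, a scaffold protein of epithelial cells, and other 14-3-3 proteins bind KRT18. SFN was at 7.61, 8.28 and 8.19 FPKM in the control libraries and 13.49, 13.32 and 13 in those labelled overexpression, which were all higher. It rose by 0.72 on the log2 scale (SE 0.083, limma adjusted p = 7.05e-04). The small heat shock genes went in different directions, since HSPB8 rose by 0.55 (adjusted p = 7.46e-04) and CRYAB, the gene of alpha B-crystallin, fell by 0.50 (adjusted p = 0.00121, named after its value was seen).

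SQSTM1, the gene of the autophagy receptor p62, which is found with keratins in the inclusions of injured liver cells, was at 559.17, 560.9 and 638.31 FPKM in the control libraries and 820.53, 868.78 and 841.97 in those labelled overexpression. The latter were all higher, a rise by 0.53 (SE 0.069, limma adjusted p = 0.00134). TCHP (trichoplein, a keratin-binding protein) rose by 0.42 (adjusted p = 0.00435, named after its value was seen). FAM83H, whose protein recruits casein kinase to keratin filaments, rose by 0.53 (adjusted p = 0.0382), a call lost without either of control replicates 1 and 2 or of replicates 2 and 3 of the libraries labelled overexpression (0.101 to 0.118). The call of YWHAB (14-3-3 beta, fell by 0.18, adjusted p = 0.0438) was lost in 12 of 18 alternatives.

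Of 26 regulators of keratin and epithelial genes 22 could be tested, and 4 were higher and 3 lower, with a median log2 fold change of 0.0040. The shares over all genes tested were 11.3% higher and 13.1% lower. ELF3, an epithelial transcription factor, was at 93.53, 100.05 and 108.06 FPKM in the control libraries and 137.86, 134.18 and 136.19 in those labelled overexpression. The latter were tight and all higher, a rise by 0.44 (SE 0.066, limma adjusted p = 0.00248) that kept its call under every alternative run. ELF3 was named after its value was seen.

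The repressors of epithelial genes did not move as a group. SNAI1 rose by 0.52 (limma adjusted p = 0.00784), while SNAI2 fell by 0.39 (adjusted p = 0.0142) and ZEB1 fell by 0.45 (adjusted p = 0.0286). SNAI2 lost its call with the neighbour median taken off (0.0529) and with the trend on GC content, length and expression taken off (0.0831), and ZEB1 without either of control replicates 1 and 2 or of replicates 2 and 3 of the libraries labelled overexpression (0.0837 to 0.0946). TFAP2C (AP-2 gamma) rose by 0.74 (adjusted p = 0.0137), lost without replicate 3 of the libraries labelled overexpression (0.0502). OVOL2, which keeps cells epithelial, rose by 0.78 from a control mean of 0.777 FPKM (adjusted p = 0.0309), lost without any one library but control replicate 3 (0.0527 to 0.110). OVOL2 reached the level for testing only through the libraries labelled overexpression (mean 1.41 FPKM), so the filter favoured a rise. KLF6 fell by 0.22 (adjusted p = 0.0282), lost without either of control replicates 1 and 2 or of replicates 1 and 3 of the libraries labelled overexpression (0.0534 to 0.0968). SNAI2 and KLF6 were named after their values were seen.

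JUN, a subunit of the AP-1 factor that acts on keratin genes, had a log2 fold change of 0.28 and did not pass (limma adjusted p = 0.0510). It passed in 7 of 18 alternatives. KLF5, a factor of epithelial cells, had a log2 fold change of 0.25 (adjusted p = 0.0945) and overlapped between groups. It passed without control replicate 3 (0.0411) and with the neighbour median taken off (0.0425). GRHL2, a factor of epithelial junction genes, was listed at 0 in every library.

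Genes of epithelial identity were 14, of which 9 could be tested, with 4 higher, 1 lower and a median log2 fold change of 0.17. The shares over all genes tested were 11.3% higher and 13.1% lower. ESRP2, the gene of an epithelial splicing regulator, was at 7.84, 8.92 and 8.59 FPKM in the control libraries and 13.57, 13.13 and 13.48 in those labelled overexpression, all higher. It rose by 0.66 (SE 0.086, limma adjusted p = 0.00129). SPINT1 and SPINT2, which encode inhibitors of epithelial surface proteases, rose by 0.49 (adjusted p = 0.00631) and 0.24 (adjusted p = 0.0136). The call of SPINT2, named after its value was seen, was lost without control replicate 2 (0.0865) or replicate 3 of the libraries labelled overexpression (0.0634), and with the neighbour median taken off (0.0557).

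LSR, a gene of tricellular junctions, rose by 0.40 (limma adjusted p = 0.0284), lost without either of control replicates 1 and 2 or of replicates 2 and 3 of the libraries labelled overexpression (0.0782 to 0.106). CD24, a surface marker of tubule progenitor cells, fell by 0.27 (adjusted p = 0.0115), lost without control replicate 2 (0.0716) and with the trend on GC content, length and expression taken off (-0.12, 0.175). EPCAM overlapped between groups, at 48.29, 44.32 and 41.1 against 40.8, 42.09 and 42.85 FPKM. Its log2 fold change of -0.09 (adjusted p = 0.411) turned to 0.0036 with the neighbour median taken off and to 0.046 with the GC, length and expression trend taken off.

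Markers of distal nephron, urothelium and endothelium were low. The summed FPKM of 6 markers of distal nephron and collecting duct, the segments where KRT7 and KRT19 are known, was 0.87 to 1.53 in the control libraries and 0.95 to 1.52 in those labelled overexpression, with UMOD and AQP2 listed at 0 and no gene reaching the level for testing. The sum of 8 markers of urothelium and stratified epithelium was 0.44 to 1.26 and 0.63 to 2.64, and that of 4 endothelial markers 0.21 to 0.34 and 0.18 to 0.41. The 4 leukocyte markers summed to 163 to 177 and 190 to 213 FPKM, carried by CD68, a lysosomal gene and the one that could be tested, and PTPRC, the gene of the leukocyte surface protein CD45, was at 0.04 FPKM or less. Of 6 fibroblast markers, summing to 14.6 to 16.2 and 17.3 to 17.6, 2 were tested and COL1A1 rose by 0.64 (limma adjusted p = 0.0116). It lost its call with the neighbour median taken off (0.43, 0.0702). The proximal tubule markers summed to 84.0 to 99.1 and 111 to 126 FPKM, of which GGT1 alone passed, with a rise by 0.47 (adjusted p = 0.00576). The fibroblast and proximal tubule sums were carried by the 2 genes tested in each. Of all genes tested, 11.3% were called higher, and the groups did not overlap for 42.1% (19.6% higher and 22.5% lower). The part of such marker differences in the keratin values was not tested.

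The genes whose pattern over the 6 libraries was most like that of each keratin were found by Pearson's r on log2(FPKM + 0.1), over genes whose mean reached 5 FPKM. The points are 3 libraries of each group, so a difference between groups alone gives a high r. The genes named are the 3 highest for each keratin among 10076 genes at that mean. With only 6 points the choice itself favours a high r, also for KRT8 and KRT81, whose groups overlapped. For KRT7 they were NAT14 (0.999), PMM2 (0.996) and MRPS25 (0.996), for KRT18 PTGES, ABHD3 and DHRS3 (0.995 each), and for KRT19 SCD5 (0.999), RBP5 (0.993) and SSH3 (0.991). For KRT8 they were RAB11FIP1 (0.992), FOS (0.990) and SLC39A1 (0.983), for KRT80 ELOVL2 (0.983), OCEL1 (0.980) and EHHADH (0.980), and for KRT81 TOMM20 (0.983), GET3 (0.979) and H4C5 (0.976). With quantile scaling those of KRT8 were 0.660, 0.782 and 0.916 and that of GET3 with KRT81 0.771, which was 0.786 with TPM scaling. The others named stayed at 0.942 or more under the pseudocounts and scalings run, which reuse the same 6 libraries.

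The members also differed in how closely replicates resembled each other. The coefficient of variation was 0.653% for KRT7 and 1.30% for KRT18 in the control libraries and 4.55% for KRT8, 5.42% for KRT80 and 6.23% for KRT19. In the libraries labelled overexpression it was 1.23% for KRT19 and 1.65% for KRT18, 3.06% for KRT8, 7.15% for KRT80, 7.25% for KRT7 and 43.1% for KRT81. With 3 libraries in a group these spreads are rough estimates.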

How the data were processed

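The authors made strand-specific, paired-end libraries from poly(A) RNA, mapped the reads with HISAT2 on GRCh38 and deposited FPKM from uniquely mapped reads, with 2 decimals. HISAT2 and DESeq2 appear in the submitters' processing notes without versions. The sources used here give neither the annotation nor the handling of strand in counting. The study describes a batch correction, and no batch is given in the labels.

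Only FPKM was analysed here, so the count test of the study could not be used. A gene was kept if its mean FPKM over all 6 libraries reached 1, which a low gene could do through its higher group alone. Genes kept were taken as log2(FPKM + 0.1), which understates the change of low genes. They were tested with limma 3.58.1 (variance trend, two-sided, all 6 libraries) in R 4.3.3, with Benjamini-Hochberg adjustment over 12461 genes and a threshold of 0.05. The fit was tested on simulated data. Positions are from RefSeq (GRCh38.p14, 98.6% of symbols matched) and transcripts from GENCODE, and plots were made in Python 3.11.15 with matplotlib 3.10.9. Whole fragments could not be recovered from the FPKM values, so depth is unknown and no counting interval is given. At the best of many trial depths, 42.3% to 46.2% of low values lay within 0.15 of a whole number. Chance gives 30% at a single fixed depth, and the chance share at the best depth was not computed.

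The members and gene lists were chosen with earlier results of these data known. Named were HNRNPF, the members, up to 4 genes a list with the largest change past the threshold, 12 keratin-related genes whatever their result, and for each member the 3 genes of most similar pattern. Genes named beyond this rule are marked. Alternatives were pseudocounts of 1 and 0.01, no filter or one at 5, scaling by TPM, quantiles or median of ratios, limma with robust estimation or without trend, a replicate block, leaving out each library and the median of neighbours within 5 Mb taken off. A trend on GC content, length and expression was added after seeing the data. One sequence is not reported here.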

Additional observations from a re-analysis of the deposited data

How the results depend on the processing

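HNRNPF, KRT7, KRT18 and KRT80 kept their direction in all 18 alternatives, and HNRNPF its call (-0.82 to -0.76 with 1 library left out). With 1 library left out, the log2 fold change was -0.41 to -0.31 for KRT7, -0.21 to -0.19 for KRT18, 0.14 to 0.23 for KRT19, -0.24 to -0.14 for KRT80, -0.072 to -0.012 for KRT8 and -0.41 to 0.23 for KRT81, and 0 to 2 keratins were lower and 0 to 1 higher. With a library left out, KRT7 lost its call once (without control replicate 2, adjusted p = 0.0523) and KRT18 in 5 of 6 cases (0.0550 to 0.0918). With all libraries, KRT18 lost its call with TPM scaling (-0.17), without the variance trend (-0.20) and with the replicate block (-0.20), each leaving 1 keratin lower. Quantile scaling brought KRT19 (0.21) past the threshold, 1 keratin higher, and turned KRT8 to 0.046. The GC, length and expression trend brought KRT80 past it (-0.30). Taking off the neighbour median turned KRT19 to -0.023. The cause was not tested. Replicate numbers did not pair the libraries (correlations of same-numbered deviations 0.091, -0.086 and 0.0057), and the replicate block gave 3115 calls over all genes beside 3039, which ranged from 1259 (without control replicate 2) to 4244 (without control replicate 3).

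Of the values of other named genes, 625 kept their side of the threshold, 79 lost a call, 14 gained one and 6 turned. VIM turned to -0.048 (-0.010 to 0.045 with 1 library left out), EPCAM to 0.0036 and 0.046, and KRT34 to 0.010 (TPM scaling) and ranged from -0.13 to 0.14 with 1 library left out. The KRT8 to KRT18 log2 ratio differed by 0.16, and the type II to type I ratio moved from -0.0091 to -0.17 when log2 values were averaged in place of sums. Depth is unknown, so the error of low rows such as KRT81 beyond the spread of libraries is unknown.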
